A study of Rattus norvegicus with 16 samples.

Results

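The 9 genes described here belong to the Wnt signaling pathway. They encode 1 ligand (Wnt4), 3 frizzled receptors (Fzd1, Fzd2 and Fzd4), 4 secreted proteins of the antagonist families (Sfrp1, Sfrp2, Sfrp4 and Dkk3) and the intracellular transducer β-catenin (Ctnnb1). They were taken as a list of names, chosen with earlier results of these data known. All 15 probe sets that the platform annotation gives for them were followed, out of 15866 probe sets tested on the Affymetrix Rat 230A array. The RNA was from the left ventricle of 16 male rats in 4 groups of 4, which were 12–14 weeks of age before the exposure began. Rats of the WKY-air and SH-air groups inhaled air, and those of the WKY-DE and SH-DE groups inhaled diesel exhaust (DE) in whole-body chambers at 2.0 mg/m3 on 5 days/week for 4 weeks, with 6 hr/day in the sample labels and 4 hr/day in the paper. The Wistar Kyoto (WKY) rat is the normotensive strain and the spontaneously hypertensive (SH) rat its hypertensive counterpart, so that a strain difference covers every allele and every effect of blood pressure by which they differ. Signals are linear MAS5 intensities. Since the labels only number the arrays of a group, p-values measure the spread between these arrays.

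Wnt proteins are secreted ligands that bind frizzled receptors together with LRP coreceptors on the cell surface. In the canonical branch, ligand binding stops the breakdown of β-catenin, which then reaches the nucleus and works with TCF/LEF transcription factors, and other branches act through planar polarity proteins and calcium. Secreted frizzled-related proteins (Sfrp) carry a frizzled-like domain and bind Wnt ligands outside the cell, whereas the Dickkopf proteins mostly act on the coreceptors, with Dkk3 the divergent member of that family. In the heart the pathway directs development and is known to be taken up again in scar formation and hypertrophy, with fibroblasts as a source of several of the secreted members.

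Sfrp2 and Fzd1 were both lower in SH-air than in WKY-air rats, and the 250 bases before their start sites are shown. These bases are from the RefSeq promoter table on the GRCr8 build, plus strand, for Sfrp2 at chr2:171387286-171387535 and for Fzd1 at chr4:30264824-30265073. They are reference sequence, and the alleles of the WKY and SH rats in these windows were not examined. Capitals mark a match to a CCAAT box on either strand.
Sfrp2: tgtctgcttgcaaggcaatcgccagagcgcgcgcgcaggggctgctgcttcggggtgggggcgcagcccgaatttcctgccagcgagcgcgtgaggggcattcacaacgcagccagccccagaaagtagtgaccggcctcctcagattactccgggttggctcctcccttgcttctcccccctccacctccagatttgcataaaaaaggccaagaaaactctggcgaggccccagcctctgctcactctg
Fzd1: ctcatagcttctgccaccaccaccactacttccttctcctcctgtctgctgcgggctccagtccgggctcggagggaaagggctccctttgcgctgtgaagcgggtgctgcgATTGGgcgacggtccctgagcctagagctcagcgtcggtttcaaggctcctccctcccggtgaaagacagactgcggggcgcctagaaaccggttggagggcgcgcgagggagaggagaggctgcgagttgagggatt
The Sfrp2 window has 62.4% G and C bases and 15 CpG dinucleotides, and the Fzd1 window 63.6% and 18, against medians of 51.2% and 5 over 33469 promoter windows of the same length. Letters were searched on both strands for the TCF/LEF site (CTTTGNN with A or T at each N), the CCAAT box (CCAAT), the TATA box (TATAAA) and the GC box (GGGCGG), and in the member windows no match to one motif overlapped a match to another. The table matched 5 of the 9 genes, these 2 with Ctnnb1, Fzd4 and Wnt4. None of the 5 windows held the TCF/LEF or TATA letters, which 14.9% and 12.9% of all windows hold. The CCAAT and the GC box letters were each in 2 of the 5, and in 34% and 30.5% of all windows.

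The arrays differed in the signal of markers of other cells of the heart, which is given before the results. The summed signal of the 9 probe sets of 6 atrial cardiomyocyte markers (Bmp10 has none on the array) ranged from 48217 to 119706 in WKY-air and from 24520 to 36771 in SH-air rats, and with exposure from 21610 to 54753 in WKY-DE and from 23004 to 44170 in SH-DE rats. Myl7, the atrial myosin light chain, had a signal of 4415 to 25946 in WKY-air and of 33.4 to 154 in SH-air. Replicate 3 of WKY-DE (9630) and of SH-DE (7876) stood apart from the other exposed arrays, which had 94.2 to 2927. Of the 9 atrial probe sets, 4 were called lower in SH-air than in WKY-air, and 1 was called lower with DE in WKY rats. The 17 probe sets of 13 fibroblast markers summed to 38669 to 47531 in WKY-air and 25980 to 29722 in SH-air rats, and to 30361 to 38357 in WKY-DE and 29107 to 33327 in SH-DE rats, and 10 of them were called lower in SH-air and 1 lower in WKY-DE. Summed ventricular cardiomyocyte markers were also lower in SH-air without overlap (212992 to 227125, against 238251 to 312462 in WKY-air). So were those of endothelium (5873 to 6316 against 6658 to 7827) and of macrophages (1185 to 1316 against 1402 to 1649). Single probe sets were less uniform, and 2 of 12 ventricular, 0 of 6 endothelial and 0 of 4 macrophage probe sets were called lower in SH-air. Estimates were higher in SH-air for 2 ventricular and 2 endothelial probe sets. Myh7 (1386993_at), 1 of the ventricular markers, had a mean of 36972 in WKY-air and 19401 in SH-air. The sums for smooth muscle and pericytes and for epicardium overlapped between these groups. In such bulk tissue, fewer cells of a type, less RNA per cell and a change in single marker genes cannot be told apart. Each difference below is therefore also given with the atrial marker level of each array as a covariate, or without both replicates 3. This is done where it ends or makes a call. The covariate, a mean log2 signal, was 11.459 or more in WKY-air and 9.496 or less in SH-air arrays. As these did not overlap, it cannot be separated from strain there, and a lost call does not measure the part of atrial tissue. Of the WKY-DE arrays, only replicate 3 (12.08) lay in the WKY-air range, which also limits the covariate for DE in WKY rats.

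Signals were compared with limma as log2(signal + 16.1), where the offset is the 10th percentile of all values and damps the differences of dim probe sets. Calls required an unadjusted p under 0.01 and, after Benjamini-Hochberg adjustment over all probe sets tested, an adjusted p under 0.05. In WKY-DE against WKY-air rats, 2 of the 15 probe sets, those of Fzd2 and Sfrp2, were called lower and 0 higher. Over all probe sets 1.88% were called in this comparison and 0.511% were called lower. Between the strains in air, 4 of the 15 were lower in SH rats, those of Sfrp1, Sfrp2, Fzd1 and 1 of Dkk3, where 3.15% of all probe sets were called and 1.79% called lower. The 2 comparisons share the WKY-air arrays. Since the members were chosen with earlier results of these data known, their share of calls is a description and no test of the list.

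In SH rats none of the 15 probe sets was called for DE by limma, where the percentage called of all was 0. Other settings called 0 members and 0 to 3 of all probe sets. An unadjusted limma p under 0.05 was reached by 2 of the 15 (Fzd2 lower, Sfrp1 higher) and by 977 of all 15866. Between SH-DE and WKY-DE rats, which share no arrays with the comparison in air, 0 of the 15 and 0.813% of all were called, and 3 of the 15 (Fzd1, Sfrp2 and Dkk3) had an unadjusted limma p under 0.05, all lower in SH-DE, beside 2106 of all 15866. Members were called there, 1 or 2 of them, with 4 other settings on all arrays (in the account of Fzd1) and on removal of SH-DE replicate 3, alone or with WKY-DE replicate 3, and the other alternatives called 0. For the strain by exposure interaction, which asks whether the DE effect differed between strains, 0 of the 15 and 0.0063% of all were called by limma, and 2 of the 15 (Sfrp2 and Fzd2) had an unadjusted p under 0.05, a share of 13.3% beside 12.5% of all probe sets. The median log2 difference of the 15 probe sets was −0.19 for DE in WKY rats, beside 0.10 for all probe sets. It was −0.22 for the strain difference in air beside 0.02, and −0.10 for DE in SH rats beside −0.0014. With quantile normalization the median of all probe sets for DE in WKY rats was 0.01, and 44 were called higher and 47 lower, against 217 and 81.

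**Figure D1:**
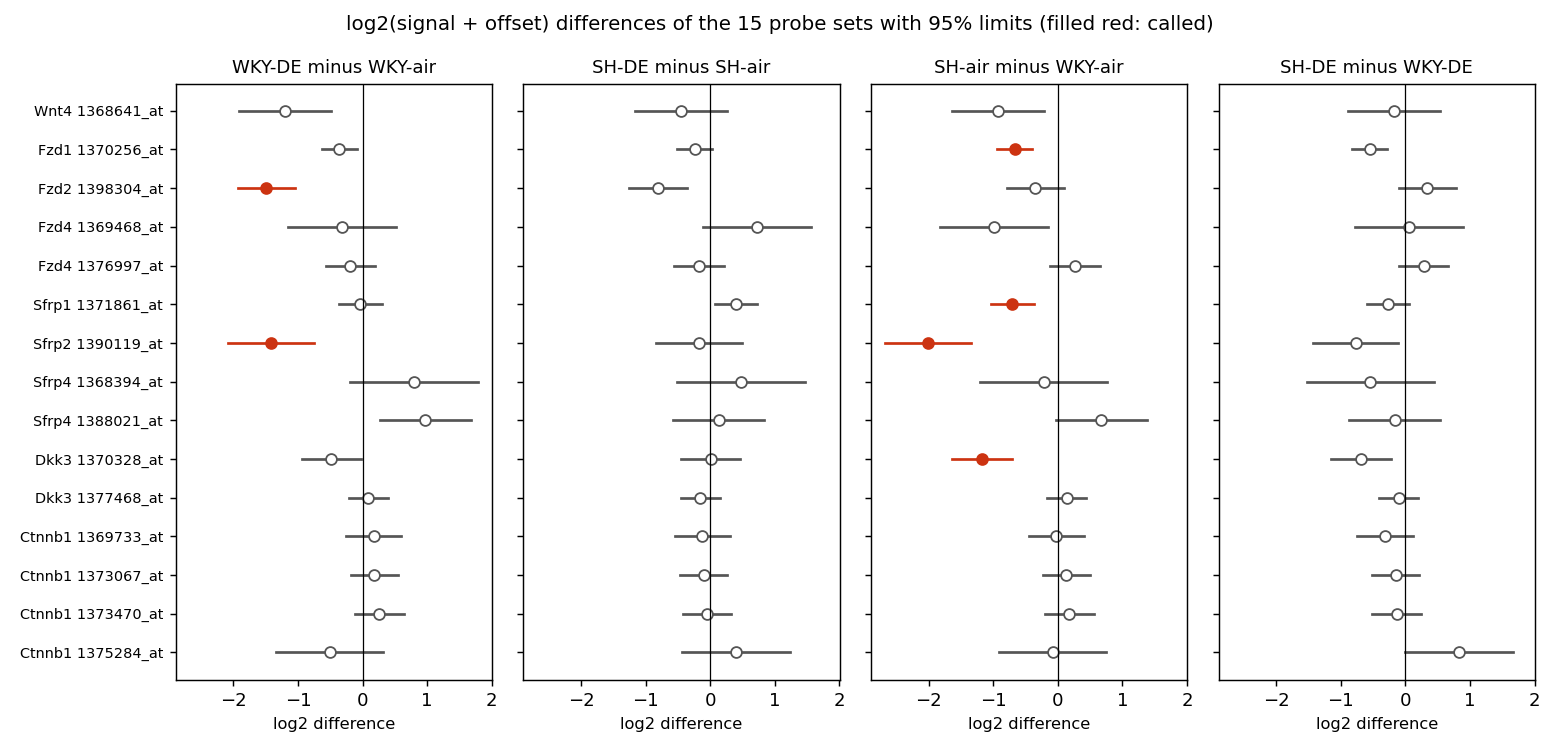
Differences of the 15 probe sets on the log2(signal + 16.1) scale in 4 comparisons, 1 panel each, with points for the limma estimate, lines for 95% limits and filled red points for called probe sets. Fzd2 and Sfrp2 are filled to the left of 0 for DE in WKY rats, Sfrp1, Sfrp2, Fzd1 and Dkk3 for the strain difference in air, and none is filled in the other panels.

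Fzd2, a receptor for both canonical and noncanonical Wnt ligands, was the member with the lowest p for DE in WKY rats. Its signal on the 4 arrays was 263, 167, 165 and 253 in WKY-air and 62.1, 78.3, 59.6 and 55.5 in WKY-DE. It was 154, 165, 131 and 195 in SH-air and 96.8, 50.2, 94.2 and 107 in SH-DE. In each strain every exposed rat was below every rat in air. The WKY-DE mean was 63.9 ± 10.02 (SD, n = 4) against 212 ± 53.2, a 3.32-fold lower signal. The log2 difference was −1.49 (SE 0.21, 95% limits −1.93 to −1.05, limma adjusted p = 0.0110). In SH rats the mean was 87.0 ± 25.1 against 161 ± 26.5, a log2 difference of −0.81 (95% limits −1.25 to −0.37), which was not called (limma adjusted p = 0.628). The DE effect in SH minus that in WKY was 0.68 (95% limits 0.06 to 1.31, limma adjusted p = 0.363), so that a difference between strains in the response of Fzd2 was not shown.

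From high to low, the Fzd2 group means were ordered WKY-air, SH-air, SH-DE, WKY-DE. The first pair of neighbours did not differ beyond their spread (log2 difference −0.35, 95% limits −0.79 to 0.09, limma adjusted p = 0.408), nor did the last pair (0.34, 95% limits −0.11 to 0.78, limma adjusted p = 0.515). Only the step between SH-air and SH-DE separated neighbours without overlap. WKY-DE replicate 3, with the highest Myl7 signal of its group, had 59.6, within the range of the other WKY-DE rats. With the atrial covariate the Fzd2 difference for DE in WKY rats was −1.56 and the call was lost (limma adjusted p = 0.0587), with 2 probe sets called of all 15866. Without both replicates 3 it was −1.47 (limma adjusted p = 0.0285).

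Fzd1, a receptor of the same subfamily as Fzd2, separated the strains in air. Its signal was 693, 693, 641 and 636 in WKY-air and 399, 436, 380.3 and 437 in SH-air, with no overlap. The SH-air mean was 413 ± 28.3 against 666 ± 31.7 (SD, n = 4), 1.61-fold lower (log2 difference −0.67, SE 0.13, limma adjusted p = 0.0123). In exposed rats it was 542, 529, 525 and 471 in WKY-DE, below every WKY-air rat, but the log2 difference of −0.36 (95% limits −0.63 to −0.09) did not reach the threshold (limma adjusted p = 0.137). In SH-DE it was 305, 307, 461 and 334, and the highest value was that of replicate 3.

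By group mean, Fzd1 was highest in WKY-air rats, followed by WKY-DE, then SH-air, then SH-DE. WKY-DE and SH-air were also without overlap, while SH-air and SH-DE overlapped (log2 difference −0.24, 95% limits −0.51 to 0.03, limma adjusted p = 0.840). Between SH-DE and WKY-DE the difference was −0.55 (95% limits −0.82 to −0.28) and missed the threshold (limma adjusted p = 0.0612). Without SH-DE replicate 3, the array with the highest atrial signal of its group, it was −0.68 and was called (limma adjusted p = 0.00452), and without both replicates 3 it was also −0.68 (limma adjusted p = 0.0154). On all 16 arrays it was called with the offset at the 25th percentile (limma adjusted p = 0.0407), without the dimmest 40% of probe sets (0.0229), with an intensity trend (0.0301) and with array weights (0.0140). With the atrial covariate the strain difference in air was −0.44 and was not called (limma adjusted p = 0.739). That covariate did not overlap between these groups and left 12 calls among all probe sets in this comparison. The part of atrial tissue in the result was not tested.

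Fzd4, a receptor known for its part in vessel growth, has 2 probe sets, and neither was called in any comparison. The brighter, 1376997_at, was between 482 and 921 in the 16 arrays. Its strain difference in air was 0.26 (95% limits −0.12 to 0.65, limma adjusted p = 0.474). The dimmer, 1369468_at, had a mean of 83.7 ± 18.1 in WKY-air and 40.7 ± 31.6 (SD, n = 4) in SH-air, where 2 rats were at 61.7 and 73.3 and the other two at 19.0 and 8.64. Its strain difference of −0.99 (95% limits −1.83 to −0.15) did not reach the threshold (limma adjusted p = 0.202). For this comparison the 2 probe sets of Fzd4 had estimates of opposite sign.

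**Figure D2:**
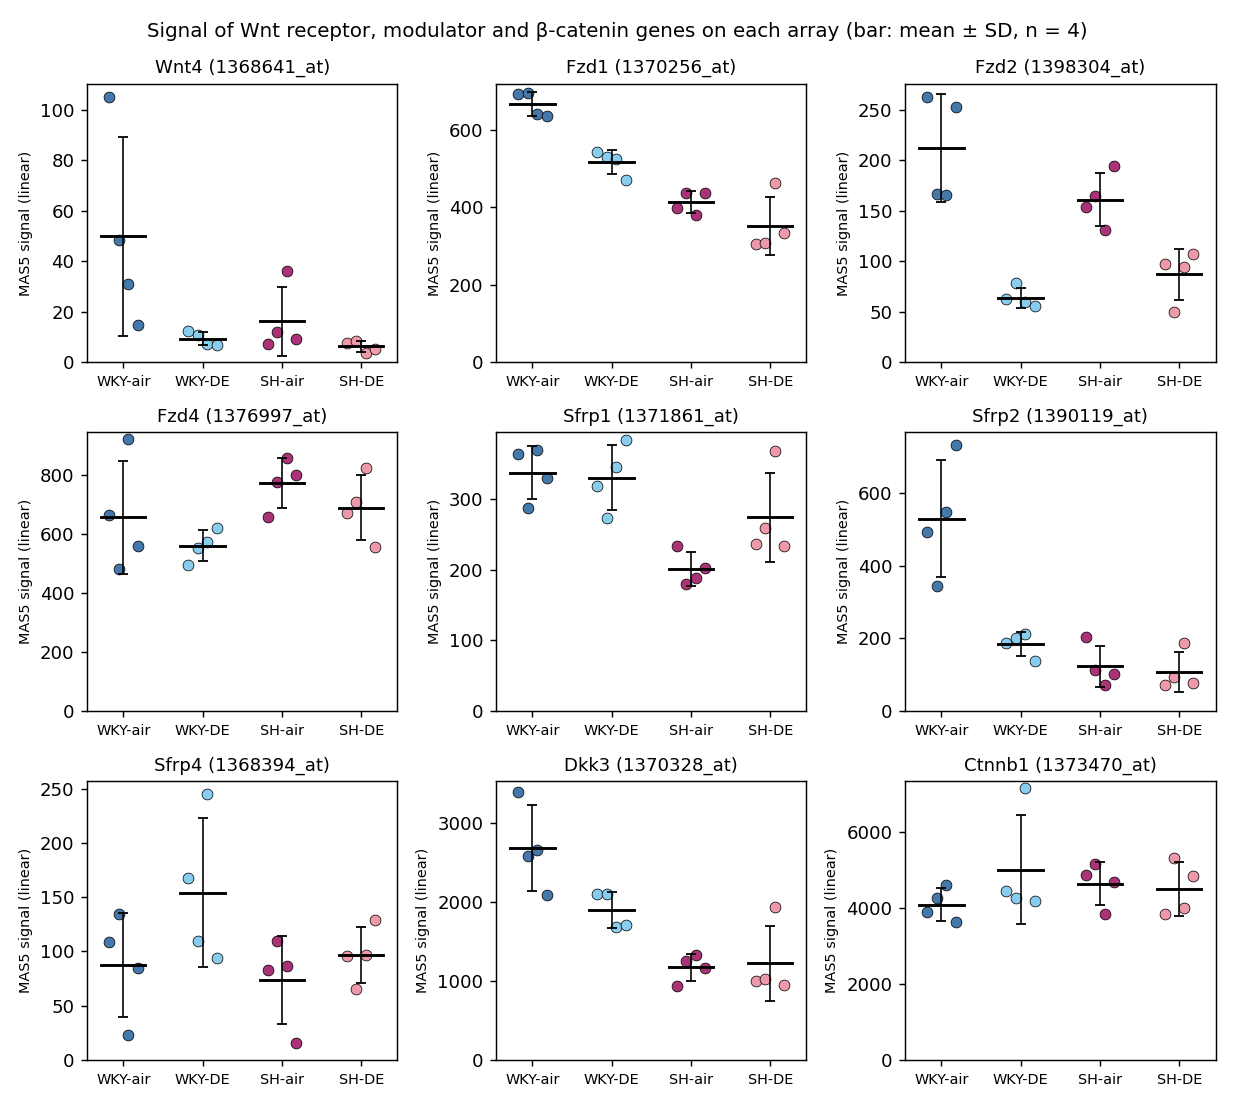
MAS5 signal (linear scale, each axis from 0) of 1 probe set for each of the 9 genes on every array, with points for rats and bars for the group mean ± SD (n = 4). For Fzd2 the exposed rats lie below the rats in air in both strains, for Sfrp2 the WKY-air rats (344 to 733) lie above all other rats, and the Ctnnb1 groups overlap.

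Sfrp2, a secreted frizzled-related protein made by fibroblasts and linked to collagen processing, had the largest strain difference of the 15 probe sets. Its signal was 492, 344, 548 and 733 in WKY-air and 204, 112, 71.8 and 103 in SH-air. The SH-air mean was 123 ± 56.7 against 529 ± 161 (SD, n = 4), 4.31-fold lower (log2 difference −2.01, SE 0.31, limma adjusted p = 0.00317). DE in WKY rats gave 186, 199.8, 213 and 137, a mean of 184 ± 33.3 and 2.88-fold lower than WKY-air. This log2 difference was −1.41 (SE 0.31, limma adjusted p = 0.0370). In SH-DE the signal was 71.4, 94.2, 188 and 76.8, the highest again in replicate 3. Every WKY-air rat was above every rat of the other 3 groups.

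The other Sfrp2 groups stood closer together. Between SH-DE and SH-air the log2 difference was −0.17 (95% limits −0.83 to 0.49, limma adjusted p = 0.973), and between SH-DE and WKY-DE it was −0.77 (95% limits −1.43 to −0.11, limma adjusted p = 0.307). The interaction of 1.24 (95% limits 0.31 to 2.17) had the lowest p of the members and was not called (limma adjusted p = 0.289). The DE call in WKY rats was lost without WKY-air replicate 1, 3 or 4 or without any 1 of the 4 WKY-DE replicates, with log2 differences of −1.49 to −1.25 and limma adjusted p of 0.0555 to 0.0901. It was also lost with an offset of 1 (limma adjusted p = 0.0508) and in a fit of only the groups compared (limma adjusted p = 0.0606). With the atrial covariate it was −1.07 (limma adjusted p = 0.190) and the strain difference in air −1.31 (limma adjusted p = 0.622), neither called. In air this covariate did not overlap between the strains, so the part of atrial tissue was not tested. Col1a2, a fibroblast collagen chain, was called lower with Sfrp2 in both comparisons (1370155_at, log2 difference −0.85 for DE in WKY rats and −0.81 between strains in air), and its part in the result was not tested. For DE in WKY rats it was the only 1 of the 17 fibroblast probe sets called (limma adjusted p = 0.0498). Of the 17 estimates, 14 were lower and 3 higher. The other Col1a2 probe set, 1387854_at, had a mean of 1656 in WKY-air and 1289 in WKY-DE and was not called.

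Sfrp1, the closest relative of Sfrp2 among the members, was lower in SH-air than in WKY-air rats. Its signal was 364, 288, 370.4 and 329.9 in WKY-air and 234, 179.5, 189 and 203 in SH-air, with no overlap. The means were 338 ± 37.9 and 201 ± 23.9 (SD, n = 4), 1.68-fold lower in SH-air (log2 difference −0.70, SE 0.16, limma adjusted p = 0.0244). DE in WKY rats gave 318, 274, 346 and 384 (log2 difference −0.03, 95% limits −0.37 to 0.30, limma adjusted p = 0.929), so that a change in either direction of more than 0.37 lies outside the limits. In SH-DE the signal was 237, 259, 368 and 234, with only 1 value, 234.064, below the highest SH-air rat (234.356). The SH-DE mean of 275 ± 63.4 against SH-air gave a log2 difference of 0.40 (95% limits 0.07 to 0.73, limma adjusted p = 0.759), which did not pass the test. The strain call was lost without WKY-air replicate 1, 3 or 4 or SH-air replicate 2, 3 or 4 (log2 difference −0.71 to −0.65, limma adjusted p 0.0547 to 0.0724), and in a fit of only the groups compared (limma adjusted p = 0.0584). With the atrial covariate, which did not overlap between these groups and so cannot be separated from strain, it was −0.21 (limma adjusted p = 0.887).

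Sfrp4, a frizzled-related protein known from bone and fibrotic tissue, was not called by either of its 2 probe sets. Both were dim and spread widely between rats. 1388021_at had 10.9, 28.5, 76.3 and 47.2 in WKY-air and 111, 82.6, 64.8 and 86.2 in WKY-DE, which overlap. Its log2 difference for DE in WKY rats was 0.97 (95% limits 0.27 to 1.67, limma adjusted p = 0.123), and that of 1368394_at was 0.80 (95% limits −0.19 to 1.78, limma adjusted p = 0.345). The 2 probe sets had estimates of the same sign for DE in both strains, and of opposite sign for the strain difference in air (0.67 and −0.22).

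Dkk3, the divergent Dickkopf protein, which cardiomyocytes and other cells secrete, was lower in SH-air than in WKY-air rats by the brighter of its 2 probe sets. 1370328_at had 3397, 2582, 2665 and 2084 in WKY-air and 937, 1256, 1334 and 1165 in SH-air, with no overlap. The SH-air mean of 1173 ± 172 against 2682 ± 541 (SD, n = 4) was 2.29-fold lower (log2 difference −1.17, SE 0.22, limma adjusted p = 0.0102). In WKY-DE the signal was 2105, 2097, 1684 and 1708, which overlaps WKY-air in 2 rats, and the log2 difference of −0.48 (95% limits −0.94 to −0.02) did not reach the threshold (limma adjusted p = 0.224). The SH-DE rats had 995, 1019.65, 1931 and 950.3, and the difference from SH-air was 0.01 (95% limits −0.45 to 0.47, limma adjusted p = 0.999). Replicate 3, at 1931, was apart from the other SH-DE rats.

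The strain difference of Dkk3 under DE was −0.68 (95% limits −1.15 to −0.22, limma adjusted p = 0.174). Without SH-DE replicate 3 it was −0.92 and was called (limma adjusted p = 0.0147), as it was without both replicates 3 (−0.98, limma adjusted p = 0.0261) and with array weights (limma adjusted p = 0.0487). With the atrial covariate, which did not overlap between the strains in air, that strain difference was −0.74 (limma adjusted p = 0.737). The call was lost, and the part of atrial tissue was not tested. The other Dkk3 probe set, 1377468_at, stayed below the offset on all 16 arrays, with signals of 2.81 to 15.1, and its differences lay between −0.25 and 0.14.

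**Figure D3:**
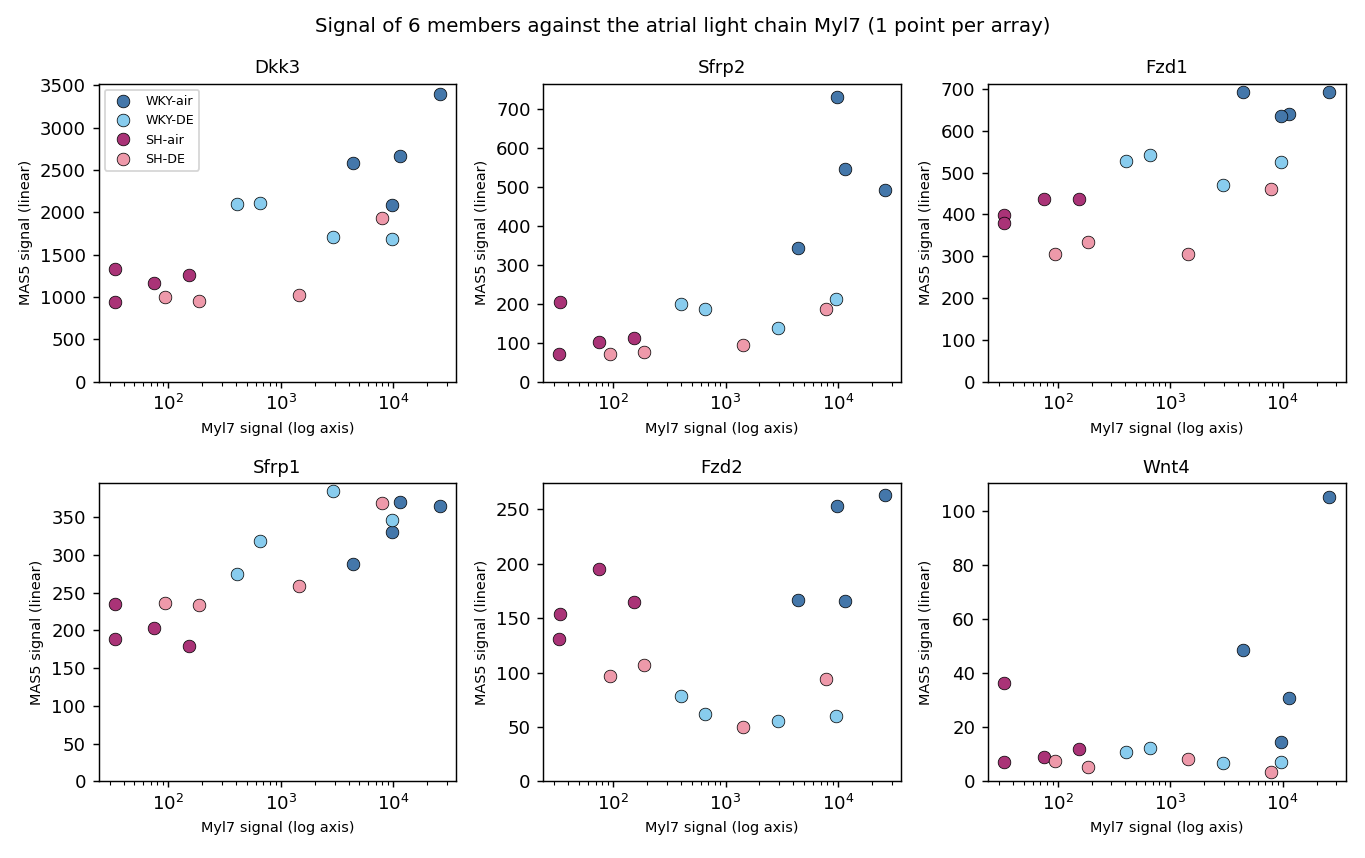
MAS5 signal of 6 members (linear scale) against that of the atrial marker Myl7 (log axis), with 1 point per array coloured by group. SH-DE replicate 3 (Myl7 7876) is the highest of its group for Dkk3, Sfrp2, Fzd1 and Sfrp1 and the lowest for Wnt4 (3.60). WKY-DE replicate 3 (Myl7 9630) is the highest of its group for Sfrp2 (213) and the lowest for Dkk3 (1684). For Fzd1 (525), Sfrp1 (346) and Fzd2 (59.6) it is among the other WKY-DE rats.

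Wnt4, the only ligand among the 9, was dim in this tissue. Its probe set was below the offset of 16.1 on 12 of the 16 arrays. The WKY-air signals were 105, 48.5, 30.9 and 14.8, and those of WKY-DE were 12.3, 10.7, 7.31 and 6.97, all below the lowest WKY-air rat. In SH-air it was 7.05, 12.1, 36.3 and 9.01, and in SH-DE 7.73, 8.46, 3.60 and 5.37. The log2 difference for DE in WKY rats was −1.20 (SE 0.33, 95% limits −1.91 to −0.49) and missed the threshold (limma adjusted p = 0.0723). Without WKY-air replicate 4, the dimmest of its group, it was −1.50 and was called (limma adjusted p = 0.0484). The highest WKY-air value was that of replicate 1, which also had the highest Myl7 signal of all arrays (25946). Its strain difference in air was −0.93 (95% limits −1.64 to −0.22, limma adjusted p = 0.158).

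Ctnnb1, which encodes β-catenin, a part of cell junctions as well as the transducer of the canonical branch, was not called by any of its 4 probe sets in any comparison. Its brightest probe sets, 1373067_at and 1373470_at, were at the 96.7 and 97.0 percentile of the mean signals of all probe sets. Their log2 differences for DE in WKY rats were 0.18 (95% limits −0.19 to 0.54, limma adjusted p = 0.585) and 0.26 (95% limits −0.12 to 0.64, limma adjusted p = 0.431). For the strain difference in air they were 0.13 (95% limits −0.23 to 0.50, limma adjusted p = 0.735) and 0.18 (95% limits −0.20 to 0.56, limma adjusted p = 0.648). Changes of more than 0.64 in either direction thus lie outside these limits. The other probe sets were 1369733_at, between 360.2 and 777 on the 16 arrays, and the dim 1375284_at, between 3.19 and 61.5. The signal of 1 WKY-DE rat, replicate 3, was 7155 for 1373470_at, while the other three had 4184 to 4458. The same rat had 5202 for 1373067_at, also the highest of its group.

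The rest of the pathway was followed in lists of ligands, ligand processing, receptors and coreceptors, secreted modulators, transducers, target genes and planar polarity genes. These lists were also chosen with earlier results of these data known. Of 121 genes listed, 70 were on the array with 100 probe sets. With limma 0 of the 100 were called in each of the 5 comparisons, and the counts at an unadjusted p under 0.05 were 14 for DE in WKY rats (9 higher, 5 lower), 20 for the strain difference in air (5 higher, 15 lower), 1 for DE in SH rats, 6 for the strain difference under DE and 3 for the interaction. Other settings called up to 4 of them for the strain difference in air and up to 1 for DE in WKY rats. The shares of 14% and 20% stand beside 20.5% and 17.5% of all probe sets in those comparisons. The medians of the 100 were 0.06 and −0.03.

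By role, the counts at an unadjusted p under 0.05 were spread over the lists. For DE in WKY rats they were 2 of 4 ligand, 1 of 9 receptor, 1 of 6 secreted modulator, 6 of 46 transducer, 3 of 23 target and 1 of 10 planar polarity probe sets. For the strain difference in air they were 2 of 4 ligand, 2 of 9 receptor and 0 of 6 secreted modulator probe sets. They were 8 of 46 for transducer, 8 of 23 for target and 0 of 10 for planar polarity probe sets. Ligand processing had 0 of 2 in both comparisons. The 23 target probe sets are of 15 genes. Of the 8 target probe sets in air, 7 were lower in SH-air, and at this p 1351 of all 15866 were lower. The genes with the lowest p, chosen after their values were seen, were Wnt2b and Ccnd1. Wnt2b, a ligand, had a mean of 301 ± 27.0 in WKY-air and 536 ± 138 (SD, n = 4) in WKY-DE (limma adjusted p = 0.0582). Ccnd1, the cyclin D1 target gene, had 424 ± 32.3 in WKY-air and 286 ± 11.8 in SH-air by 1371150_at (log2 difference −0.54, limma adjusted p = 0.0683), and its other 2 probe sets had estimates of the same sign (−0.65 and −0.59).

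**Figure D4:**
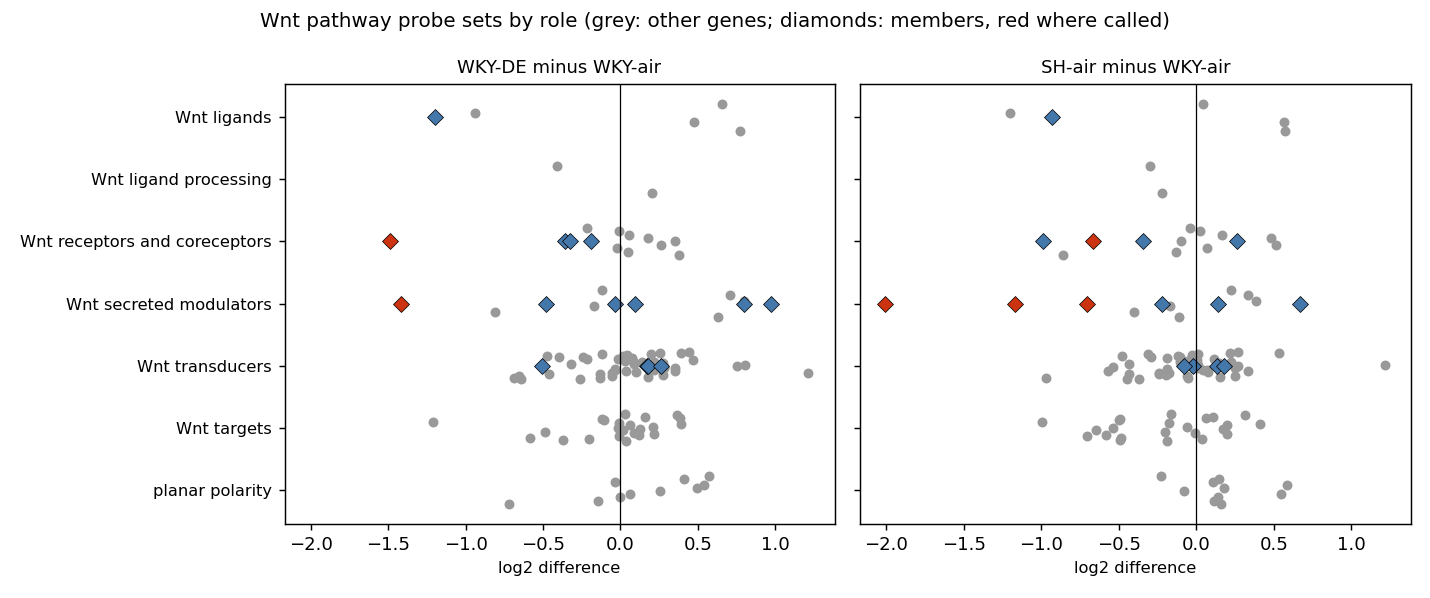
Differences on the log2(signal + 16.1) scale for DE in WKY rats and for SH-air against WKY-air, with 1 point per probe set in rows by role, grey for the other 100 Wnt pathway probe sets and diamonds for the 15 members, red where called. No grey point was called, and the red diamonds are Fzd2 and Sfrp2 in the first panel and Fzd1, Sfrp1, Sfrp2 and Dkk3 in the second.

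The members that were called followed partly different patterns over the arrays. As a description, the log2 signals of Fzd1 were most like those of Clu (Pearson r = 0.94 over the 16 arrays), Dkk3 (0.92) and Slc41a3 (0.91). For Dkk3 the nearest were Sh3bgr, Dap and Clu, each with r = 0.93. Sfrp2 was nearest to Cdkn2aipnl (0.91), Stx4 and Fzd1 (both 0.88), and Sfrp1 to Mat2a (0.90), Atp1b4 and Apeg3 (both 0.88). Fzd2 had none of these among its nearest, which were Atp6v0c (0.86), Hdlbp (0.85) and Rnf10 (0.84). For Rnf10 the mean signal was 2473 in WKY-air against 1704 in WKY-DE rats, and 2684 in SH-air against 1912 in SH-DE rats. These points share the arrays, their scaling and the 4 groups.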

How the data were processed

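Left ventricular total RNA was labeled and hybridized to Affymetrix Rat 230A arrays, 1 array for each of 16 samples. The deposited table gives, for every probe set on every array, a linear intensity that the authors computed with MAS5 per the labels (version not given), and each array had a mean of 500.2 after 2% was trimmed at each end. The paper used RMA values for its own lists, and these were not used here.

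From the deposited intensities, 57 control probe sets were left out and 15866 of 15923 were converted to log2 after adding 16.1. Dim probe sets were kept, and arrays were not normalized further. The 4 group means were fitted in 1 model of all 16 arrays with limma 3.58.1 in R 4.3.3 (12 residual and 2.68 prior degrees of freedom), with Benjamini-Hochberg adjustment over 15866 probe sets. No batch is given in the labels. Precision is limited by the number of arrays.

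Genes were assigned by the platform annotation, in which 12783 have 1 gene, 312 have several and 2771 are not listed. For 12748 probe sets the symbol was then taken from RefSeq by the gene identifier. The members and all gene lists were chosen with earlier results of these data known. The text names every member, the Wnt gene of lowest p in the 2 main comparisons, for each called member the 3 genes of highest Pearson r, and markers needed beside a result. Markers of ventricular cardiomyocytes, endothelium, smooth muscle and pericytes, epicardium and macrophages were also followed: 2 of 12, 0 of 6, 0 of 7, 0 of 6 and 0 of 4 probe sets were called in SH-air against WKY-air by limma, and 1 of 12 and then 0 of each in WKY-DE against WKY-air. Promoter windows were read from a RefSeq table on GRCr8.

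The calculations were tested on simulated data. Alternative settings were a stricter adjusted p of 0.01, an offset of 1 or of 62.5 (25th percentile of the values), quantile normalization, removal of the dimmest 40% of probe sets, variance moderation with a trend and robust to outliers, weights per array, fits to the compared groups only, a block for the replicate number, and removal of each array in turn. After the data were seen, a covariate from the atrial markers and the removal of replicate 3 from both exposed groups were added. Probe sequences were not compared with the alleles of either strain.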

Additional observations from a re-analysis of the deposited data

Results flagged for a closer look

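Of 60 groups of 4 signals, 15 probe sets in 4 groups, 3 held an array far from the other three by Dixon's test at the 95% level, which chance gives in about 1 in 20 groups. Dkk3 (1370328_at) was 1931 in SH-DE replicate 3, where the other SH-DE rats had 950.3 to 1019.65. This array also had the highest Myl7 signal of its group (7876). WKY-DE replicate 3, with a higher Myl7 signal (9630), had the lowest Dkk3 signal of its group (1684). Ctnnb1 (1373470_at) was 7155 in WKY-DE replicate 3, where the other WKY-DE rats had 4184 to 4458, and this array had the highest Myl7 signal of WKY-DE (9630). By another probe set, 1369733_at, Ctnnb1 was 568 in SH-DE replicate 1, where the other SH-DE rats had 488 to 501. That array had the lowest Myl7 signal of SH-DE (94.2). The part of atrial tissue in these values was not tested.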

How the results depend on the processing

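No member call turned in direction under any alternative. Of 27 alternatives each, the DE call of Fzd2 was kept in 25 and that of Sfrp2 in 15, and the strain calls in air of Sfrp2, Fzd1, Dkk3 and Sfrp1 in 26, 25, 25 and 18. For the 56 member values with a p of 0.05 or more, 1473 alternatives were run, of which 48 turned the sign and 0 were called. Leaving out the dimmest 40% of probe sets removed 6 of the 15 member probe sets. The cause of the changes in count was not tested.

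Members called for DE in WKY rats, 2, were 0 at an adjusted p under 0.01, 1 with an offset of 1, 1 with only the groups compared, 1 with the replicate block, where Sfrp2 was not called (limma adjusted p = 0.0710), and 0 with the atrial covariate. For the strain difference in air, 4 became 1 at an adjusted p under 0.01. It became 0 with the atrial covariate, which did not overlap between these groups. For the strain difference under DE, 0 became 1 with the offset at the 25th percentile, 1 without the dimmest 40%, 1 with the intensity trend, 2 with array weights and 2 without both replicates 3. Leaving out 1 array gave 1 to 2, 3 to 4 and 0 to 2. The lower count for DE in WKY rats came without WKY-air replicate 1 or 3 or any WKY-DE replicate, and the 2 under DE came without SH-DE replicate 3.

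The other Wnt pathway probe sets, 0 called, were 1 for DE in WKY rats with the offset at the 25th percentile, without the dimmest 40%, with the intensity trend, with array weights and with the replicate block. For the strain difference in air they were 4 without the dimmest 40%, 2 with the intensity trend and 2 without both replicates 3, and under DE 1 without the dimmest 40% and 1 with array weights. Leaving out 1 array gave 0 to 1 in each of the 3, with the 1 reached without SH-DE replicate 3, and for the strain difference in air also without SH-DE replicate 2.

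Among all probe sets, 298 were called for DE in WKY rats. This was 4 at an adjusted p under 0.01, 536 with the offset at the 25th percentile, 91 with quantile normalization, 639 without the dimmest 40%, 667 with the intensity trend, 529 with array weights, 35 with only the groups compared, 113 with the replicate block, 96 without both replicates 3 and 2 with the atrial covariate. In the same order where the count moved by over 1.5 times, the strain difference in air (499) became 113 at an adjusted p under 0.01, 766 without the dimmest 40%, 752 with the intensity trend, 174 with only the groups compared, 315 with the replicate block and 12 with the atrial covariate. DE in SH rats (0) became 1 with the intensity trend, 2 with array weights and 1 with the replicate block. The strain difference under DE (129) became 57, 262 without the dimmest 40%, 244 with the intensity trend, 283 with array weights, 34 with only the groups compared and 70 with the replicate block. The interaction (1) became 0 at an adjusted p under 0.01, 0 with an offset of 1, 4 with the offset at the 25th percentile, 6 with quantile normalization, 2 without the dimmest 40%, 2 with the intensity trend, 0 with the replicate block, 0 without both replicates 3 and 0 with the atrial covariate. Leaving out 1 array gave 43 to 304 for DE in WKY rats (lowest without WKY-DE replicate 2), 249 to 558 for the strain difference in air (lowest without SH-air replicate 4), 0 to 3 for DE in SH rats, 67 to 212 for the strain difference under DE (lowest without WKY-DE replicate 1, highest without SH-DE replicate 3) and 0 to 6 for the interaction. The labels do not say whether the replicate numbers pair the rats. Deviations of same-numbered arrays correlated between −0.0961 and 0.0533, and at most 2 of 4 arrays correlated best with their own number. With 4 arrays per group these values cannot exclude a pairing.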
